A study of Mus musculus with 346 samples.

Results

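Myelin protein genes were followed through single cells of the mouse mammary gland at 3 stages of post-natal development. The set holds 8 genes, Mbp, Pmp22, Cnp, Mal, Gldn, Ncmap, Gjc3 and Mag, taken by name after the Entrez numbers of the deposited counts had been matched to mouse symbols, and all 8 were found among the 25173 genes analysed. The series profiled 346 cells sorted as total mammary epithelium from FVB/NJ mice, an inbred laboratory strain. They comprised 144 Pre-puberty cells (2 weeks of age), 136 Puberty cells (4.7 to 4.9 weeks) and 66 Adult cells (10 weeks). Cells had been stained for CD24 and CD29, and depleted of blood and endothelial cells by the surface markers Ter119, CD45 and CD31. They were sorted and caught singly on Fluidigm C1 chips, where polyadenylated RNA was turned into full-length cDNA. The labels give no treatment for any group. The study pooled several mice for each sort but its labels tie no cell to a mouse, so each stage was 1 sample, no test was made between stages, and the intervals below cover counting error only.

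Myelin is the membrane that glia wrap around axons: Schwann cells make it in peripheral nerves and oligodendrocytes in the central nervous system. Its compact layers are held together by a small set of abundant proteins, while channels, adhesion proteins and enzymes sit in the uncompacted rims, at the inner face next to the axon and at the nodes of Ranvier. Schwann cells that have not begun to myelinate, and those that keep several thin axons in one bundle, carry lower levels of these transcripts, and several of the genes are also used outside glia.

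The sequence before the start of transcription was read for the members from RefSeq windows of GRCm38.p6, which held 7 of the 8 genes. The outermost start that this table gives for a gene was used, with the 250 bases before it. For Cnp and Ncmap this start lay 30 and 13 bases inside the annotated span of the gene, so the last 30 bases of the Cnp line belong to the gene itself. Cnp and Mag are shown because they were the 2 of 7 that contained the letters ACAAAG on either strand, a core that SOX-family factors such as SOX10 can bind. Pmp22 is shown because it had the highest level of the set and contained none of the motifs searched. Capitals mark ACAAAG, or CTTTGT where it lies on the opposite strand, and the last base of each line is the base just before the start.
Cnp: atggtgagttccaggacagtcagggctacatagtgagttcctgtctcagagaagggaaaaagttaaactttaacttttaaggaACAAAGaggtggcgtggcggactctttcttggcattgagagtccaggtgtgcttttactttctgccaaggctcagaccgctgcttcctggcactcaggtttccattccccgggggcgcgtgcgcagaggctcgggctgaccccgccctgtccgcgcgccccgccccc
Mag: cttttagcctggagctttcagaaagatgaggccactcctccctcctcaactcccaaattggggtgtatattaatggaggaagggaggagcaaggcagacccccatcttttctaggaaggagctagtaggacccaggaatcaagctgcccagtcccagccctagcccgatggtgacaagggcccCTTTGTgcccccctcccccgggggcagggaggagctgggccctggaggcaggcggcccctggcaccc
Pmp22: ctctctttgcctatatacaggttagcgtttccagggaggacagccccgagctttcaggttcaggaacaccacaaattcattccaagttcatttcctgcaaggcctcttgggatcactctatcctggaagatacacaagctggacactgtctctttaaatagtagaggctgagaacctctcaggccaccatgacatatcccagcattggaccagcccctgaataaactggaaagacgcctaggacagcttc
These stretches lie at chr11:100574689-100574938 on the plus strand for Cnp, chr7:30914923-30915172 on the minus strand for Mag and chr11:63128732-63128981 on the plus strand for Pmp22. The match lay 167 to 162 bases before the start in Cnp and 67 to 62 bases before it in Mag. ACAAAG was present in 16.5% of the 27025 windows of this length, one for each gene. None of the 7 members held ACAATG, another SOX core, the EGR-family letters GCGTGGG or the TATA box letters TATAAA, each searched on both strands without overlap between them. These were present in 10.9%, 4.18% and 13.0% of all windows.

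The coverage filter of the study, at least 100000 reads on the analysed genes and at least 1500 genes detected, kept 116 Pre-puberty, 119 Puberty and 44 Adult cells, with 109394 to 1189292 reads each. The study itself reports more Puberty and Adult cells after filtering than the series used here holds, so the late sets are smaller than its own. Median depths were 296639, 574596 and 334382 reads, so detection was compared after thinning every cell at random to 100000 reads, and a gene was called detected at 1 read or more. Some profiles repeated each other. Most of Pre-puberty cells 1 to 36 fell into sets spaced 12 numbers apart, and 22 of the 28 Pre-puberty cells left out by the filter had a Pearson correlation of log2(CPM + 10) of 0.75 to 0.97 with a kept cell 12 or 24 numbers away. Kept cells reached at most 0.59 with each other at Pre-puberty, 0.63 at Puberty and 0.57 in Adult cells, so no kept cell repeated another to that degree. Among left-out Adult cells, 6 passed the value between kept cells. Adult cells 13, 25, 29, 34 and 38 all matched kept cell 33, at 0.63 to 0.72, and cell 66 matched kept cell 51 at 0.95. None of these pairs lay 12 or 24 numbers apart. No left-out Puberty cell passed the value between kept cells. What the sets are was not tested. The label of epithelium was checked against 14 pan-epithelial genes. The median Pre-puberty cell had 0 of them, against 9 at Puberty and 7 in Adult cells. Epcam, an epithelial adhesion protein, was detected in 13.8% of Pre-puberty cells, 94.1% of Puberty cells and 90.9% of Adult cells. The basal lineage was scored apart, with 15 genes that include Krt5 and Krt14 of the first list. Of these 15 the median Pre-puberty cell held 3, with quartiles of 1 and 5. The median was 2 for Puberty (0 and 9) and 7 for Adult cells (2 and 11). The highest Pre-puberty count was 13, in cells 103 and 133, which had 4 and 5 of the 8 members. Pre-puberty cell 30 had 12 basal genes and 2 members. Of 20 Schwann cell genes that are not members, the median Pre-puberty cell had 14 and the median Puberty or Adult cell 1. Their summed level was 19478, 590.0 and 730 reads per 1000000 (CPM). Summed per cell it ran from 134 to 52113 CPM at Pre-puberty, from 0 to 22577 CPM at Puberty and from 0 to 4912 CPM in Adult cells. Most of the Adult sum came from Scn7a, at 596 CPM and detected in 72.7% of Adult cells. The study lists Scn7a and Ngfr among the genes of adult basal cells. Schwann genes counted in later cells can thus include genes of basal cells. Of 10 oligodendrocyte genes the median cell of every stage had 0, their summed level at Pre-puberty was 11.8 CPM, and Olig2, Nkx6-2 and Enpp6 had no read there. The median Pre-puberty cell also had 5 of 15 fibroblast genes, with the collagen genes Col1a1, Col1a2 and Col3a1 detected in 109, 114 and 116 cells and Pdgfra, a fibroblast receptor, in 5. What part other cell types had in the levels given here was not tested.

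Per length of transcript, Pmp22 had the highest level in Pre-puberty cells, at 2788 reads per 1000 bases and 1000000 reads (RPKM) over the summed cells. It was followed by Cnp at 698, Mal at 278, Mbp at 197, Gjc3 at 68.3, Ncmap at 27.3, Mag at 6.24 and Gldn at 3.00 RPKM. The lower quartile of Pmp22 over cells (973 RPKM) lay above the upper quartile of Cnp (920 RPKM), so these neighbours were set apart by more than the middle spread of cells. The quartile ranges of Cnp and Mal, of Mal and Mbp, and of Mbp and Gjc3 overlapped. The median cell had no read of Ncmap, Mag or Gldn, so their order rests on a few cells. The deposited length of Mbp, 6718 bases, covers all its annotated exons, and its level per length is low to that extent. Pmp22, Cnp and Mbp kept this order in Puberty and Adult cells.

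**Figure D1:**
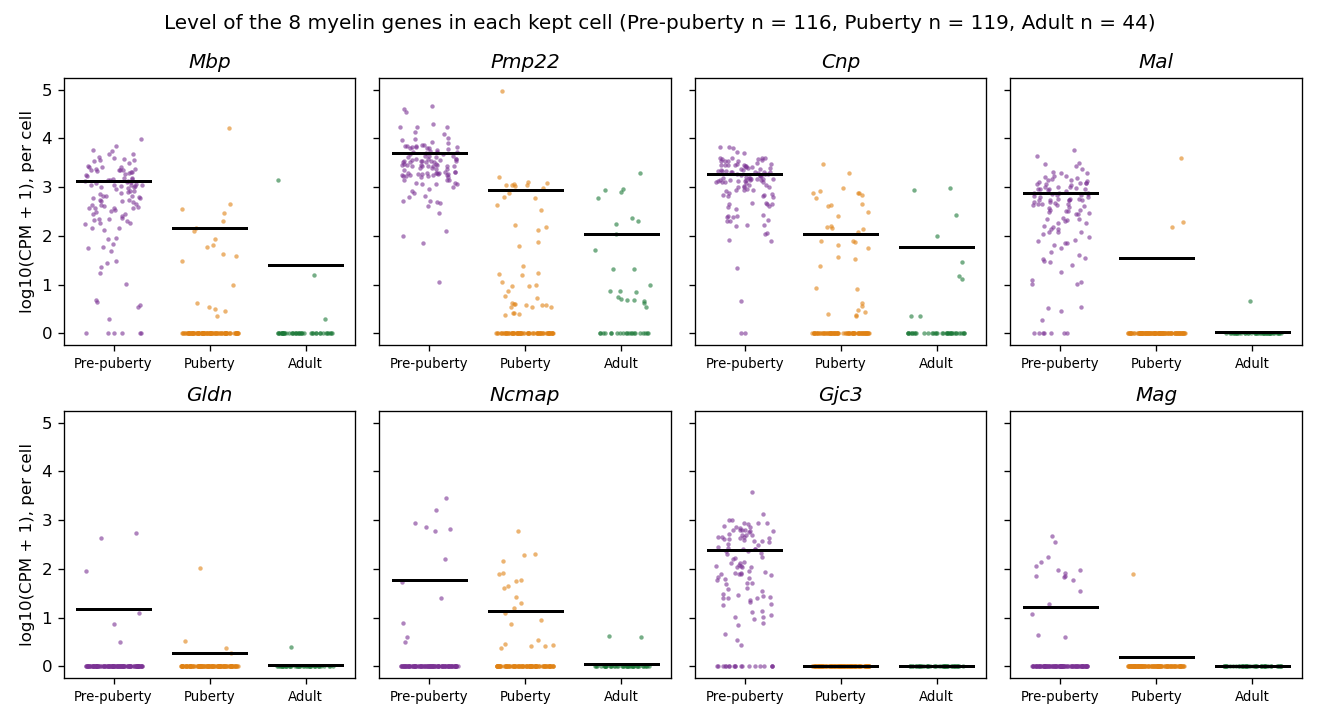
Level of each member in every kept cell, as log10(CPM + 1) on the vertical axis, with cells of Pre-puberty (n = 116), Puberty (n = 119) and Adult (n = 44) side by side. Points are cells and the black bar is the level of the summed stage. Mbp, Pmp22, Cnp, Mal and Gjc3 fill the Pre-puberty column, while Gldn, Ncmap and Mag have most cells at 0 at every stage.

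Mbp encodes the cytoplasmic protein that draws the inner faces of compact myelin together (Entrez 17196, chromosome 18, 82475091 to 82585637 in GRCm38). In single Pre-puberty cells it ranged from 0 to 9804 CPM with a median of 670.0 CPM, and it was detected in 106 of 116 thinned cells (91.4%, 95% interval 84.7 to 95.8). At Puberty the median cell had none, the highest had 16168 CPM, and it was detected in 15 of 119 cells (12.6%, 7.23 to 19.9). Among Adult cells 2 of 44 had it (4.55%, 0.56 to 15.5) and the highest had 1388 CPM. The ranges of the stages overlap, both through Pre-puberty cells with no read and through a few late cells with high levels. Over the summed cells Mbp stood at 1322 CPM at Pre-puberty (1310 to 1333), against 143 CPM (139.8 to 145.4) for Puberty and 23.9 CPM (21.8 to 26.2) for Adult cells, but 1 cell held 89.0% of the Puberty reads and 1 held 98.7% of the Adult reads. Without the cell with the most reads at each stage the levels were 1186, 15.8 and 0.33 CPM.

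Pmp22 encodes a tetraspan membrane protein of compact peripheral myelin that is also made by fibroblasts and epithelia (Entrez 18858, chromosome 11, 63128982 to 63159547). Every Pre-puberty cell had it, from 10.1 to 46944 CPM with a median of 2846 CPM. At Puberty the median was 0 and the highest cell had 96513 CPM, and in Adult cells the median was 2.77 CPM and the highest 1911 CPM. It was detected in 100% of thinned Pre-puberty cells (96.9 to 100), 23.5% of Puberty cells (16.2 to 32.2) and 31.8% of Adult cells (18.6 to 47.6). No other member was detected in as many Adult cells, and every later cell except Puberty cell 52 and Adult cell 36 had less Pmp22 than the lower quartile of Pre-puberty cells, 1752 CPM. The summed levels were 5022 CPM (5000 to 5044), 883 CPM (876 to 890) and 106 CPM (102 to 111). A single Puberty cell held 85.8% of the Puberty reads, and without it the level there was 127 CPM. Adult cell 36 carried 44.7% of the Pmp22 reads of its stage, which had 60.3 CPM once this cell was set aside.

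Cnp encodes a cyclic nucleotide phosphodiesterase of uncompacted myelin (Entrez 12799, chromosome 11, 100574909 to 100591875). Its span overlaps Dnajc7, and since the treatment of strand in the counting is not stated, reads from the overlap are uncertain. In Pre-puberty cells it ranged from 0 to 6820 CPM with a median of 1436 CPM, and 114 of 116 thinned cells had it (98.3%, 93.9 to 99.8). At Puberty 29 of 119 had it (24.4%, 17.0 to 33.1), up to 3018 CPM, and in Adult cells 7 of 44 (15.9%, 6.64 to 30.1), up to 961 CPM. Unlike Mbp and Pmp22, its Puberty reads were spread over cells, with 20.8% in the highest. The summed levels were 1868, 108 and 57.5 CPM. Adult cell 52 carried 59.2% of the Cnp reads of that stage, which had 24.3 CPM once this cell was set aside.

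Mal encodes a proteolipid that sorts proteins to apical and myelin membranes (Entrez 17153, chromosome 2, 127633226 to 127656695). It ranged from 0 to 5832 CPM in Pre-puberty cells with a median of 440.0 CPM and was detected in 104 of 116 (89.7%, 82.6 to 94.5). Only 3 Puberty cells had it, at 4009, 188 and 150 CPM, and the 44 Adult cells held 1 read between them. The summed levels were 773 CPM at Pre-puberty and 34.6 CPM at Puberty, of which 90.9% was in 1 cell. Against the Adult cells the level was 14448-fold higher, with a counting interval of 2593 to 570674 that shows how little 1 read fixes.

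Gjc3 encodes a connexin, a gap junction channel protein, of myelinating glia (Entrez 118446, chromosome 5, 137950992 to 137963098). It was the only member with no read in any kept cell of the later stages. Pre-puberty cells ranged from 0 to 3795 CPM with a median of 85.7 CPM, and 92 of 116 thinned cells had it (79.3%, 70.8 to 86.3). No read fell on it in any of the 119 Puberty or 44 Adult cells kept, which allows a share of cells with a read of up to 2.52% and 6.82%. Its summed level of 240.1 CPM at Pre-puberty was at least 5482-fold higher than at Puberty and at least 1496-fold higher than in Adult cells, taking 3 reads over the whole stage as the limit for a count of 0.

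The other 3 members were found in few Pre-puberty cells. Ncmap encodes a membrane protein of uncompacted myelin (Entrez 230822, chromosome 4, 135369576 to 135398240), and 9 of 116 thinned cells had it (7.76%, 3.61 to 14.2), with up to 2899 CPM in a cell. Mag encodes an adhesion protein of the inner myelin face that touches the axon (Entrez 17136, chromosome 7, 30899175 to 30914922), and 14 cells had it (12.1%, 6.76 to 19.4), up to 478 CPM. Gldn encodes gliomedin, which Schwann cells secrete at the nodes of Ranvier (Entrez 235379, chromosome 9, 54286486 to 54341777), and 5 cells had it (4.31%, 1.41 to 9.77), up to 554 CPM. The span of Gldn overlaps Gldnos, so its reads carry the same doubt about strand as those of Cnp.

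In later cells these rare members differed from each other. Ncmap was detected in 15 of 119 Puberty cells (12.6%, 7.23 to 19.9), a share whose interval overlaps that of Pre-puberty, but at lower levels, with 590 CPM in the highest cell and 12.6 CPM over the stage against 58.7 CPM at Pre-puberty. Gldn was detected in 2 Puberty cells and Mag in 1, the latter at 77.3 CPM. No thinned Adult cell had any of the 3, which allows a share of up to 6.82%. As deposited, the Adult cells held 2 reads of Ncmap, 1 of Gldn and none of Mag. The Pre-puberty level was 549-fold (151.7 to 4532) that of Adult cells for Ncmap, 260.3-fold (46.5 to 10298) for Gldn and at least 94.3-fold higher for Mag. The Pre-puberty levels of these members rest in part on single cells. Cell 4 held 67.4% of the Gldn reads, and cell 72 held 43.4% of the Ncmap reads and 27.8% of the Mag reads. Without that cell Gldn stood at 4.65, Ncmap at 33.5 and Mag at 11.0 CPM. At Puberty cell 52 held 36.6% of the Ncmap reads and 94.9% of the Gldn reads, and Ncmap stood at 8.07 CPM without it.

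On the log2 scale, with 5 CPM added to both levels, all 8 members were past 1 for Pre-puberty over Puberty, where 9.42% of all 25173 genes were. The median difference of the members was 2.83, from 1.69 for Gldn to 5.62 for Gjc3, against a median of 0 over all genes. For Pre-puberty over Adult all 8 were again past 1, where 14.2% of all genes were, with a median of 5.20, from 1.91 for Gldn to 7.27 for Mal. All 8 members reached 10 CPM at Pre-puberty, which most of the 25173 genes did not reach at either stage compared. Among genes at 10 CPM or more at either stage, 21.4% were past 1 against Puberty and 31.6% against Adult cells. The medians of these genes were -0.13 and 0.02. Both comparisons use the same Pre-puberty cells. With the cell that had the most reads of each member left out at each stage, the medians were 4.66 and 5.69, and 7 of 8 members were past 1 in each comparison, since Gldn came to 0.94 and 0.95. The added 5 CPM understates the difference of a member whose level was near 0 at a later stage.

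The members were then counted in each cell. The median Pre-puberty cell had 5 of 8 (quartiles 4 and 5), and 104 of 116 cells had 4 or more (89.7%, 82.6 to 94.5). The median was 1 member at Puberty and 0 in Adult cells. A single Puberty cell of 119 had 4 or more (0.84%, 0.02 to 4.59) and none of 44 Adult cells did, which allows up to 6.82%. All 8 members were detected in 3 Pre-puberty cells, numbers 4, 72 and 82. At the other end, Pre-puberty cells 19, 30 and 55 had 2 members each, Pmp22 and Cnp, with Pmp22 as low as 10.1 CPM in cell 30.

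**Figure D2:**
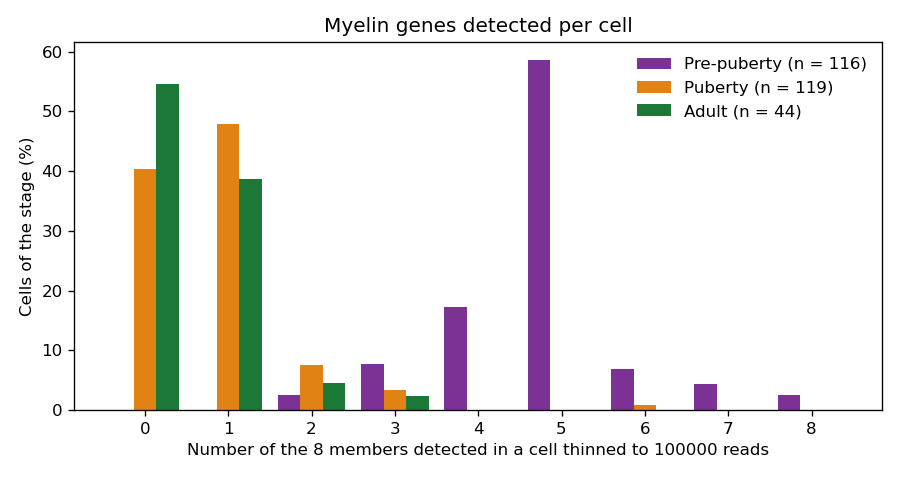
Percent of kept cells of each stage (vertical axis) by the number of the 8 members detected after thinning to 100000 reads (horizontal axis). Pre-puberty cells (n = 116) peak at 5 members with 58.6% of cells, while most Puberty (n = 119) and Adult (n = 44) cells have 0 or 1 and a single Puberty cell has 6.

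Pre-puberty cells numbered 1 to 37 had more reads than the rest, and the 12 kept had a median of 937015 reads against 283461 for the other 104. The labels do not say what the numbers stand for. Of the 5 common members, Mal was detected in 8 of these 12 cells and in 96 of the 104 others, and Gjc3 in 7 of 12 and 85 of 104. Mbp had a median of 230.4 CPM in the first block and 749 CPM in the second, while Cnp had 2180 and 1396 CPM. The members together stood at 10089 CPM over the summed cells of the first block and 9043 CPM over those of the second. With the cells from 38 on alone, a choice made after seeing the data, 92.3% had 4 or more members.

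Whether the members varied together from cell to cell was described by Spearman correlation of log2(CPM + 10) over the 116 thinned Pre-puberty cells. All 28 pairs were positive, from 0.07 to 0.73, with a median of 0.31. Among the 5 common members the 10 pairs ran from 0.18, for Pmp22 with Mal, to 0.45, for Mbp with Pmp22, with a median of 0.36. Over all 1530375 pairs of the 1750 genes detected in at least 50% of these cells the median was 0.03 and the central 95% lay between -0.17 and 0.23. The points share libraries and unnamed mice, so no p is given. The mean level of the members had a correlation of 0.10 with reads and -0.03 with the number of genes detected. Without the 9 cells in which Ncmap was detected, the median over the 10 pairs was 0.29.

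**Figure D3:**
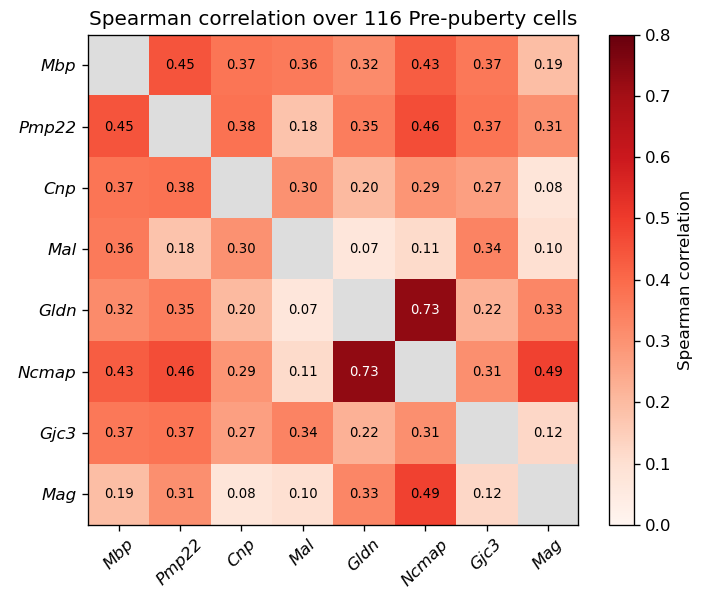
Spearman correlation between each pair of members over 116 Pre-puberty cells, thinned, on log2(CPM + 10), with the color and the number giving the same value and the diagonal left grey. The highest value, 0.73 for Gldn with Ncmap, rests on 5 and 9 cells, and the lowest, 0.07, is that of Mal with Gldn.

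The rare members lay in overlapping cells. All 5 cells with Gldn (4, 49, 58, 72 and 82) also had Ncmap, whose other cells were 60, 70, 86 and 137. Of the 14 cells with Mag, 6 had Ncmap. The 9 cells with Ncmap also stood high in the abundant members. Thinned, their Pmp22 ran from 10440 to 47730 CPM with a median of 17820 CPM, against 30 to 12640 CPM with a median of 2650 CPM in the other 107, so the groups overlapped only at the edge. Mbp had medians of 4090 and 600 CPM, Cnp 5030 and 1380 CPM and Gjc3 470 and 70 CPM. Mal did not follow, with 540 and 410 CPM. The 2 sets of cells were alike in depth, at medians of 297382 and 295896 reads. They were formed from reads of a member after its values had been seen, so the contrast is a description.

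**Figure D4:**
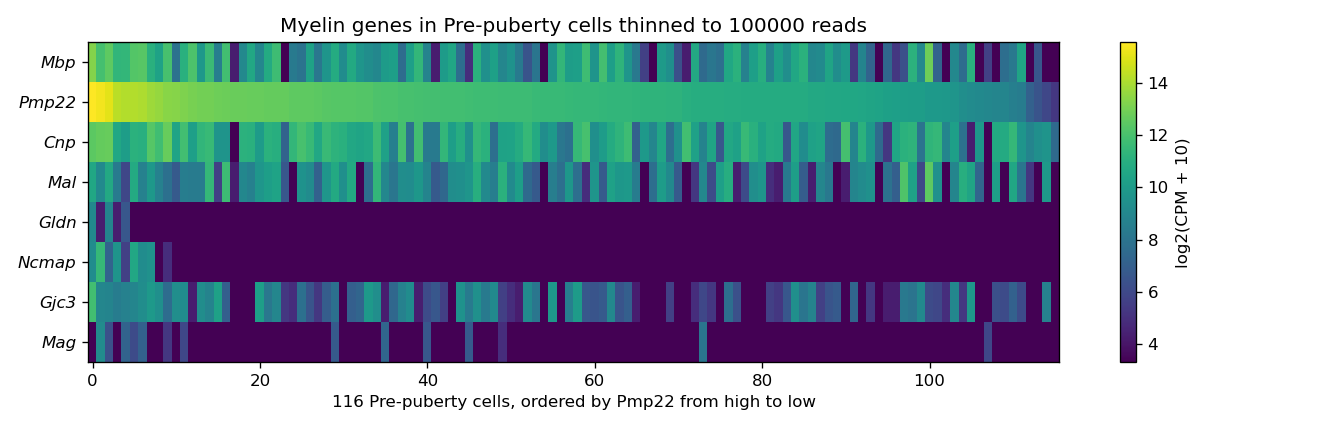
The 8 members (rows) in 116 Pre-puberty cells (columns) thinned to 100000 reads, ordered by Pmp22, with color giving log2(CPM + 10). Reads of Gldn and Ncmap sit at the left end with the highest Pmp22, while Mbp, Cnp, Mal and Gjc3 spread over the whole range.

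Other genes of the lists used here were set beside the same split. Periaxin (Prx), which links the Schwann cell membrane to its cytoskeleton, was detected in 9 of the 9 cells with Ncmap and 16 of the other 107, its partner Drp2 in 8 and 10, and Cldn19, a tight junction protein of myelin, in 8 and 12. Not every gene of the myelin structure list followed. Dag1 had medians of 20 and 20 CPM and Gpm6b 2890 and 2210 CPM. Cadm4 was detected in 2 of 9 and 24 of 107, and Gjb1 in none of either set. Ugt8a, the enzyme that makes the galactolipids of myelin, was detected in 8 of 9 and 18 of 107. Other lipid genes went the other way. Gal3st1, which adds sulfate to these lipids, was detected in 0 of 9 and 26 of 107, Aspa had medians of 80 and 260 CPM, and Scd2 had 0 and 50 CPM. Ncam1, an adhesion protein of immature and non-myelinating Schwann cells, had medians of 180 and 710 CPM, and Id2, on the list of immature Schwann cells and repressors, had 730 and 140 CPM, while Sox10, the glial transcription factor, had 70 and 110 CPM. Of the pan-epithelial genes, Krt14 was detected in 1 of 9 (11.1%) and 33 of 107 (30.8%), and Krt5 in 1 and 22 (20.6%). Others were near equal or went the other way. Epcam was detected in 1 and 15 (14.0%), Krt8 in 1 and 11 (10.3%), Krt18 in 1 and 10 (9.35%), Krt19 in 1 and 5 (4.67%) and Esrp1 in 1 and 4 (3.74%). Each value for the 9 cells thus rests on 1 cell. The rest of the list was not detected in the 9. Cell 58, which had Ncmap and Gldn, also had 6 pan-epithelial and 12 basal genes.

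**Figure D5:**
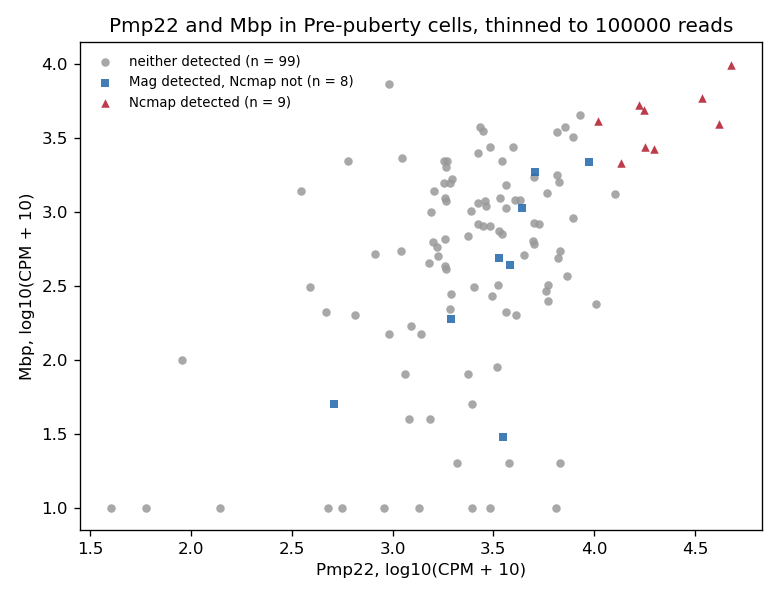
Pmp22 (horizontal) against Mbp (vertical) in 116 Pre-puberty cells, both as log10(CPM + 10) after thinning, each point a cell. The 9 cells with Ncmap (triangles) lie in the upper right corner, while the 8 cells with Mag and no Ncmap (squares) are spread among the other 99.

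Which later cells carried the members differed by gene. Puberty cell 52 had 6 of the 8, with 96513 CPM of Pmp22, 16168 of Mbp, 4009 of Mal, 595 of Cnp, 590 of Ncmap and 104 of Gldn, and no read of Gjc3 or Mag. Its Pmp22 was above that of every Pre-puberty cell. It had 6 of the 20 Schwann genes, 5 of 14 pan-epithelial, 4 of 10 luminal, 1 of 15 basal and 3 of 15 fibroblast genes, so markers of more than one cell type lay in this well. Without it the members summed to 259 CPM at Puberty in place of 1183 CPM.

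The remaining carriers held 1 to 3 members each. Puberty cell 77 had 949 CPM of Cnp, 1095 of Pmp22 and 291 of Mbp together with 9 Schwann, 9 pan-epithelial, 12 basal and 12 fibroblast genes. Puberty cell 55 had 1295 CPM of Pmp22 and 188 of Mal, with 7 Schwann and 9 basal genes. Puberty cells 117 and 11 and Adult cell 7 also had 3 members. Adult cell 7, the main Adult carrier of Mbp at 1388 CPM, had 10 pan-epithelial genes, 9 basal, 9 luminal and 1 Schwann gene.

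Cnp after Pre-puberty lay mostly in cells with basal genes. The 29 Puberty cells in which it was detected had a median of 9 of the 15 basal genes, against 1 in the other Puberty cells, and the 7 Adult cells with Cnp had 11 against 7. The 15 Puberty cells with Ncmap had medians of 10 pan-epithelial, 9 of 10 luminal and 1 basal gene, and the 15 with Mbp had 10, 8 and 1. The Puberty cells without the gene in question were near these values, with medians of 9, 8 and 2 in both cases. High Pmp22 lay in part in cells with fibroblast genes. Puberty cell 29 had 1609 CPM, with 13 of 15 fibroblast genes and 1 pan-epithelial gene. Adult cell 36 had 1911 CPM, with 10 fibroblast, 5 pan-epithelial, 5 luminal and 4 basal genes. High Pmp22 also lay in cells with basal genes. Puberty cell 117 had 1223 CPM, with 12 basal, 10 pan-epithelial and 7 luminal genes. The median late carrier of Mbp, Cnp or Ncmap at Puberty had 1 Schwann gene, as did the other Puberty cells. At Puberty the 28 carriers of Pmp22 had a median of 2 Schwann genes, the 2 of Gldn 3.5 and the 3 of Mal 6. Cells without the gene had 1 in each case. Puberty cell 52, with 6 Schwann genes, was in all of these sets, so their medians are not separate. In Adult cells the 2 carriers of Mbp, 14 of Pmp22 and 7 of Cnp had a median of 2 against 1.

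Other genes of myelin and of the Schwann cell lineage were counted by the same threshold of 1 on the log2 scale. Above this threshold lay 9.42% of all 25173 genes against Puberty and 14.2% against Adult cells. Of the genes that reached 10 CPM at either stage compared, 21.4% and 31.6% lay above it. Of 15 other genes of myelin structure, 10 were higher at Pre-puberty than at Puberty and 11 than in Adult cells, and none was lower. Among the most abundant were Gpm6b, a membrane glycoprotein of glia and neurons (2784, 71.3 and 12.8 CPM at Pre-puberty, Puberty and Adult), and Cd9, a tetraspanin (2627, 1957 and 2202 CPM). Cd9 was thus near the same level at all stages, with log2 differences of 0.42 and 0.25. Of 9 genes of node and axon contact, 8 were higher in both comparisons and none was lower, with Ncam1 (897, 14.2 and 15.8 CPM), Cadm1 (531, 48.0 and 32.4 CPM), Cadm2 (382, 0.26 and 0.05 CPM) and L1cam (151.1, 0.50 and 0.59 CPM) the most abundant.

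Of 11 transcription factors of myelination, 5 were higher at Pre-puberty than at Puberty and 6 than in Adult cells. Zeb2, which Schwann cells need to mature, had 1010.4, 55.6 and 0.27 CPM. Egr2, the factor that switches on myelin genes, had 299, 60.4 and 198 CPM, and Sox10 had 253, 37.4 and 32.8 CPM. Yy1 had 48.8, 72.2 and 19.7 CPM. Below -1, where 10.5% of all genes lay against Puberty and 11.9% against Adult cells, were Nab1, a partner of EGR factors (46.0, 143 and 54.6 CPM), against Puberty, and Srebf1, a regulator of lipid synthesis (16.2, 46.5 and 47.8 CPM), against both. Of 8 genes of immature Schwann cells or repressors of myelination, 5 were higher than at Puberty and 4 than in Adult cells. Jun had 740.0, 381 and 545 CPM, Id2 467, 124 and 293 CPM, Notch1 65.6, 11.5 and 16.4 CPM and Ngfr 62.6, 0 and 3.26 CPM. Id4 was the one below -1 in both (15.7, 43.1 and 67.8 CPM).

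Of 10 axon signals and their receptors, 6 were higher than at Puberty and 7 than in Adult cells. Lpar1, a lysophosphatidic acid receptor, had 3541, 127 and 12.6 CPM, Itgb1 and Itga6, laminin receptor chains, had 1036, 428 and 631 CPM and 586, 340 and 291 CPM, and Adgrg6, a receptor that Schwann cells need to start myelination, had 452, 74.2 and 90.2 CPM. Nrg1, the growth factor that axons present to Schwann cells, was below -1 in both (32.1, 640 and 187 CPM). Of 13 genes of myelin lipids and cholesterol, 7 and 10 were higher. Hmgcs1, an early enzyme of cholesterol synthesis, had 882, 255 and 292 CPM, Aspa had 398, 21.1 and 0 CPM and Scd2 265, 46.7 and 28.6 CPM. Scd1, a fatty acid desaturase, was below -1 against Adult cells (94.7, 140.2 and 314 CPM). Of 6 genes of oligodendrocyte myelin, 1 was higher and 1 lower in each comparison, Cldn11 (10.1, 2.02 and 0 CPM) and Omg (0.49, 11.7 and 27.4 CPM), and Mog, Opalin, Mobp and Ermn were at 0.10 CPM or less at Pre-puberty.

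The genes most like the members were sought among 1745 others detected in at least 50% of the 116 Pre-puberty cells, by Spearman correlation with the mean log2(CPM + 10) of the 8 members. Of the 10 highest, 9 are given. Cmtm5, a membrane protein known from myelin, stood at 0.49. It was followed by Tgfbr3 at 0.47, a coreceptor for TGF-beta, Hmgcs1 at 0.46, Sdc4 and Npr3 at 0.43, Secisbp2l and Tiparp at 0.42, Arpc1a at 0.41 and Cnn3 at 0.40. The median over all 1745 was 0.01. Of these 9 genes, Npr3 and Cmtm5 were also near 0 later, with 0.95 and 1.17 CPM at Puberty, whereas Sdc4, a syndecan, was higher at Puberty (9451 CPM) than at Pre-puberty (7379 CPM).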

How the data were processed

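Single mammary cells of 3 stages were profiled by full-length RNA-seq on the Fluidigm C1 without molecular identifiers. The deposited counts are whole read pairs per Entrez gene and cell, not normalised, which the authors made by mapping to mm10 with Subread (version 1.4.6 in the submitters' processing notes) and assigning reads to RefSeq genes with featureCounts. The treatment of strand and of reads shared between similar genes is not given in the sources used here. Each file also holds a deposited gene length in bases (other than a measurement), used here for RPKM, the reads per 1000 bases and 1000000 reads computed from the counts.

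Of 27179 genes, 25275 matched RefSeq (GRCm38.p6, the assembly of mm10). The 1904 unmatched, 15 mitochondrial and 87 ribosomal protein genes were removed, as in the study. No 2 cells held identical counts. A left-out cell was counted as repeating a kept cell where their correlation passed the highest between kept cells of the stage, a rule set after seeing the data, and no doublet caller was run because the authors had inspected each well. CPM of a stage was the summed reads of its kept cells over their summed library sizes, with exact Poisson intervals at 95%. Shares have exact (Clopper-Pearson) binomial intervals at 95%, and the limit for a count of 0 is 3 counts. Reads are amplified copies, so both cover counting error only. No statistical test was made, since each stage is 1 sample.

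The members and all gene lists were chosen with earlier results of these data known. The lists share genes: Ncam1 and L1cam, for example, are in the Schwann list and in that of node and axon contact. Counts of a list cover all its genes, but 3 genes that the naming rule below takes in are not reported here. Named were all members, in each list up to 4 genes with the highest Pre-puberty CPM and any below -1 on the log2 scale, the 10 genes most like the members, and later cells with 4 or more members. Genes named in the comparison of cells with and without Ncmap, and later cells with fewer members, were chosen after their values were seen.

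Alternatives changed the added CPM, the weighting of cells, the scaling (TMM factors of edgeR 4.0.16 in R 4.3.3), the coverage filter (also 200000 reads and 2000 genes), the genes counted, the cells used, the thinning and the thresholds. The calculations ran in Python 3.11.15 with NumPy 2.4.6, pandas 2.3.3 and SciPy 1.17.1 and were tested on simulated data.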

Additional observations from a re-analysis of the deposited data

Results flagged for a closer look

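The 28 Pre-puberty cells left out by the coverage filter held reads of the members at 7663 CPM over their summed reads (95% counting interval 7430 to 7902). They stand out because they enter none of the comparisons above and their level lies above that of the kept Puberty cells, 1183 CPM, and of the kept Adult cells, 188 CPM. They are mostly not separate data: 22 of the 28 repeat the profile of 1 of 11 kept cells, and these 22 stood at 8917 CPM (8602 to 9240). The other 6, cells 11, 23, 35, 77, 124 and 141, stood at 5441 CPM (5116 to 5781), with at least 1 member read in each, but 11, 23 and 35 lie 12 numbers apart like the repeated sets, and 2 of these have 1464 and 1432 reads. The kept Pre-puberty cells had 9313 CPM. The cells left out at the other stages had 161 CPM (17 Puberty cells) and 183 CPM (22 Adult cells, 6 of which met the rule for a repeat).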

How the results depend on the processing

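No paired analysis was possible because each stage is 1 sample and the labels tie no cell number to a mouse or sort across stages. Spaced numbers share a profile within Pre-puberty, and the alternative without a coverage filter counts those repeats. All 18 alternatives for the median log2 differences kept their direction. For Pre-puberty over Puberty the median, 2.83, became 3.28 with 1 CPM added, 2.70 with equal weight for each cell, 2.91 with TMM factors, 2.96 with every gene counted and 4.66 without the cell with the most reads of each member. For Pre-puberty over Adult, 5.20 became 5.64 with 1 CPM added, 5.02 with equal weight, 5.28 with every gene counted and 5.69 without those cells. The share of Pre-puberty cells with 4 or more members became 97.4% for 3 or more and 72.4% for 5 or more. The single Puberty cell became 5 with a threshold of 3 members and 2 without thinning, when cell 55 joined, and the Adult count of 0 became 1 with a threshold of 3. The median correlation of 0.31 was 0.29 on the deposited counts, 0.29 by Pearson, 0.32 under the stricter filter, 0.28 for cells 38 and up and 0.32 given the genes detected. Chosen after seeing the data, it was 0.26 without the cells with Ncmap and 0.36 for the 10 pairs of common members, and this last value became 0.31 for cells 38 and up and 0.29 without the cells with Ncmap. Among genes at 10 CPM or more at either stage the background was 21.4% above 1 and 24.1% below -1 against Puberty, and 31.6% and 28.9% against Adult cells. Except where the construction shows it, the cause was not tested. The Adult levels of Mal, Gldn, Ncmap, Gjc3 and Mag rest on 0 to 2 reads, and differences between mice, sorts and chips cannot be told apart from stage.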
